A study of Rattus norvegicus with 13 samples.

Results

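The smooth muscle contractile genes described here are Acta2, Actg2, Tagln, Myl9, Mylk, Cnn1, Tpm1, Tpm2 and Nexn, which encode the actins, tropomyosins and actin-binding and myosin-regulating proteins of smooth muscle and of myofibroblasts. They were chosen by name, all 9 of 9 were measured, and they are 9 of the 14217 genes that the array measures. Where several probe sets name a gene, the brightest on average over the 13 arrays stands for it: 1370857_at for Acta2, 1386869_at for Actg2, 1367570_at for Tagln, 1388298_at for Myl9, 1371541_at for Mylk, 1367785_at for Cnn1, 1370287_a_at for Tpm1, 1372219_at for Tpm2 and 1370854_at for Nexn. Tpm1 has 7 probe sets, Mylk, Tpm2 and Nexn have 2 each, and the others have 1.

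The arrays come from a rat model of intrahepatic cholangiocarcinoma, a cancer of the bile ducts. BDEsp cells, spontaneously transformed rat bile duct epithelial cells of low grade malignancy, were inoculated into the bile duct of young adult male Fischer 344 rats, and 4 tumours that arose were snap-frozen. An epithelial cancer cell line (clone H10, 3 arrays) and clone E4, a line of cancer-associated fibroblastic cells positive for alpha smooth muscle actin (4 arrays), were isolated from these tumours and cultured, each alone, within a rat tail type I collagen gel. There is 1 array labelled as epithelial cells and 1 labelled as fibroblastic cells in co-culture of both lines. The labels do not say whether both come from the same co-culture. Each line is 1 clone, both lines come from the Fischer 344 background, no group carries an added gene or a drug, and the plating density behind the co-culture arrays is not given in the labels.

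In smooth muscle and in myofibroblasts, alpha and gamma smooth muscle actin polymerise into contractile bundles on which tropomyosins lie, and myosin pulls once myosin light chain kinase has phosphorylated its regulatory light chain. Calponin, transgelin and nexilin bind and organise these filaments. Fibroblasts that gain this machinery under tension and TGF-beta are called myofibroblasts, and alpha smooth muscle actin is the usual marker of activated fibroblasts in the dense stroma of cholangiocarcinoma. Many genes of this machinery are controlled by serum response factor, which binds a DNA element called the CArG box.

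Acta2, the gene whose product named the fibroblastic line positive, is shown with the RefSeq sequence before its start because CArG boxes are classically described there. The 250 bases upstream of the RefSeq start lie at chr1:241172504-241172753 of GRCr8, on the minus strand, and are written 5′ to 3′ with CArG-like stretches in capitals.
Acta2: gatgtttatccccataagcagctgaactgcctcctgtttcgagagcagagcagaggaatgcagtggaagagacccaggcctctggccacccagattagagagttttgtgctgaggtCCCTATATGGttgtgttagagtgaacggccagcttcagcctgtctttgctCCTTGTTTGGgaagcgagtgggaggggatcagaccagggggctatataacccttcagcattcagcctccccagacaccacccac
Each capital stretch of 10 bases has CC and GG at its ends and 1 base among the 6 between them that is not A or T, and they lie at positions -134 to -125 and -84 to -75 counted from the start. The search covered both strands, since the pattern reads alike on both. Of 33469 promoter windows of 300 bases, 9.42% hold a box with at most 1 such mismatch and 1.64% hold an exact box. Of the contractile genes, 7 have a window (Tagln and Myl9 are not listed), 1 of the 7 holds a box with at most 1 mismatch and 0 hold an exact one. A match describes letters only, and no binding was measured.

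The deposited values are on the log2 scale, so a difference of 1 is 2-fold. The array medians lay between 6.15 and 6.25, and the number of arrays limits the precision. The labels do not say whether arrays of 1 line came from separate cultures, so a p-value here reflects the spread between arrays, which may be technical. Differences were tested with limma over all 14217 genes, and a gene is called where its Benjamini-Hochberg adjusted p-value is under 0.05. The mean of 9 cholangiocyte markers was 12.28 to 12.81 in the epithelial and 4.45 to 4.99 in the fibroblastic line. The mean of 10 fibroblast markers was 5.07 to 5.16 and 10.73 to 11.26 in the same lines. Of these fibroblast markers 8 of 10 were higher in the fibroblastic line, where 16.6% of all genes were. The proteoglycan genes Dcn (5.49 against 4.32) and Lum (4.28 against 3.56) were not called.

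Both co-culture arrays stand apart from their labels in 1 respect, which touches every co-culture value below. The array labelled epithelial co-culture had a cholangiocyte marker mean of 11.96 and a fibroblast marker mean of 9.82, and the array labelled fibroblastic co-culture had 11.86 and 9.82. Krt19, the keratin that marks cholangiocytes, stood at 13.49 and 13.21 in them, against a mean of 14.07 in the epithelial line and 4.18 in the fibroblastic line. Col1a1, a chain of type I collagen, stood at 12.61 and 13.04, against 5.73 and 13.71. The epithelial genes Cdh1 (11.85 and 12.03) and Epcam (12.47 and 11.96) and the fibroblast receptor gene Pdgfrb (8.07 and 8.00) were present in both arrays too. Each array therefore carried the markers of both lines. Co-culture results are given by label and also with both arrays taken as 1 group, a setting added after the data were seen. Both arrays may come from the same co-culture, and then they are not replicates. A p-value of the 1-group setting treats them as replicates, so it may be too small.

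The lines grown alone were compared first, to ask how much of the contractile set separates the fibroblastic from the cancer cell line. Of the 9 genes, 8 were called higher in the fibroblastic line and 0 lower, where 16.6% of all genes tested were called higher and 20.9% lower. The arrays of the lines did not overlap for these 8 genes. The share of all genes without overlap was not counted, so nothing is read from that. The median log2 difference of the 9 genes was 6.05, against -0.11 for all genes. Tpm1 was the gene not called.

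**Figure D1:**
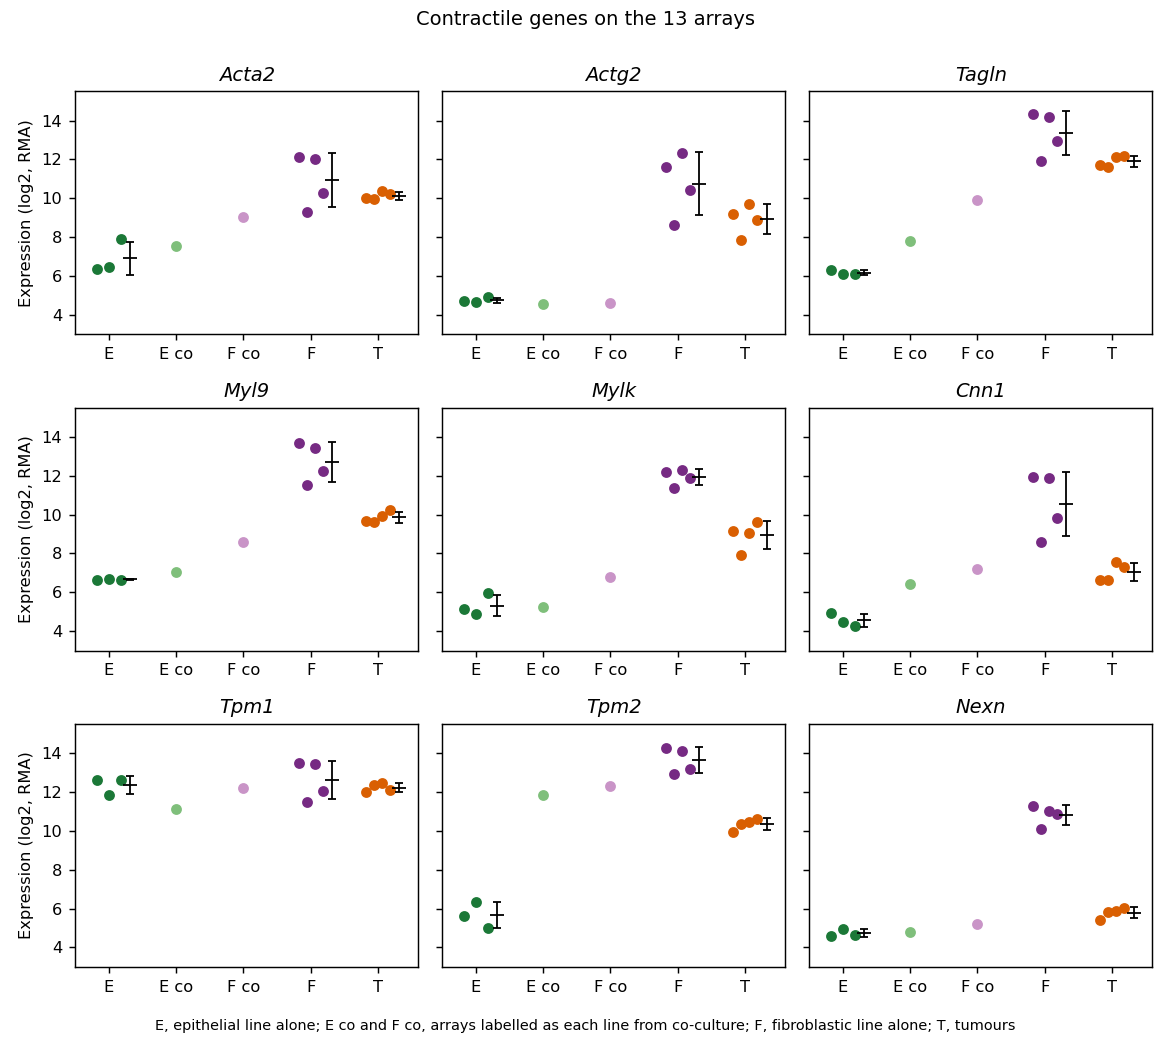
Deposited log2 level of each contractile gene (1 panel per gene) on each of the 13 arrays, grouped as epithelial line (E), the arrays labelled epithelial and fibroblastic co-culture (E co, F co), fibroblastic line (F) and tumours (T); each point is 1 array and bars are the mean ± SD of a group. In 8 of the 9 panels the 4 fibroblastic arrays lie above the 3 epithelial arrays, and in the Tpm1 panel the lines overlap.

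Alpha smooth muscle actin, encoded by Acta2, stood at 12.13, 9.29, 12.04 and 10.29 in fibroblastic arrays 1 to 4 and at 6.37, 6.45 and 7.90 in epithelial arrays 1 to 3. The epithelial line was therefore not uniform, with array 3 above the other arrays, and the fibroblastic arrays fell into 2 high and 2 lower values. The means were 10.94 ± 1.39 (SD, n = 4) and 6.91 ± 0.86 (SD, n = 3), which differ by 4.03 on the log2 scale (SE 0.74, limma adjusted p = 0.00365). A further 5 probe sets name both Acta2 and the cardiac actin gene Actc1 and were not used. They differed between the lines by -0.28 to 0.24.

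Gamma smooth muscle actin, the enteric form encoded by Actg2, stood at 11.62, 8.64, 12.32 and 10.44 in the fibroblastic arrays and at 4.69, 4.66 and 4.91 in the epithelial arrays. All fibroblastic arrays were far above all epithelial arrays, but they differed from each other by up to 3.69. The log2 difference was 6.002 (SE 0.77, limma adjusted p = 0.00056).

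The tropomyosins, which lie along actin and gate its access to myosin, behaved differently from each other. Tpm2 stood at 14.29, 12.94, 14.13 and 13.18 in the fibroblastic arrays and at 5.63, 6.35 and 4.99 in the epithelial arrays. Its difference of 7.98 (SE 0.43, limma adjusted p = 3.69e-06) was the largest of the 9 genes. The second probe set of Tpm2, dimmer with a mean of 5.18 over all arrays, gave 0.66, so the size of this difference rests on the probe set. Tpm1 stood at 13.49, 11.50, 13.43 and 12.06 against 12.63, 11.84 and 12.62, high in both lines and overlapping. Its difference was 0.26 (SE 0.51, 95% confidence interval -0.93 to 1.44, limma adjusted p = 0.73). Tpm1 makes many spliced and alternatively started isoforms, and its 7 probe sets gave differences from -0.16 to 1.85, so the result for this gene rests on the probe set. It also rests on fibroblastic arrays 2 and 4, without which the difference was 1.09 (limma adjusted p = 0.0242). These are the arrays in which all 9 contractile genes stood lowest. Leaving them out raises the fibroblastic mean and narrows its spread by construction. Calls gained that way, here or below, are not read as support.

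Transgelin and calponin bind actin filaments and are classical markers of differentiated smooth muscle. Tagln, which encodes transgelin, stood at 14.36, 11.91, 14.20 and 12.97 in the fibroblastic arrays and at 6.32, 6.12 and 6.09 in the epithelial arrays. The arrays of each line kept apart by more than 5 log2 units. The difference was 7.18 (SE 0.56, limma adjusted p = 3.11e-05). Cnn1, which encodes calponin 1, stood at 11.93, 8.61, 11.91 and 9.80 against 4.94, 4.47 and 4.28. Its SD within the fibroblastic line was the largest of the 9 genes, and it differed by 5.999 (SE 0.79, limma adjusted p = 0.00067).

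The myosin switch followed the same direction. Myl9, the regulatory light chain of smooth muscle myosin, stood at 13.67, 11.52, 13.44 and 12.23 in the fibroblastic arrays and at 6.66, 6.70 and 6.65 in the epithelial arrays. Its difference was 6.05 (SE 0.49, limma adjusted p = 4.13e-05). Mylk, the kinase that phosphorylates that light chain, stood at 12.19, 11.39, 12.28 and 11.91 against 5.13, 4.87 and 5.94. The fibroblastic arrays were closest together for this gene, and the difference was 6.62 (SE 0.31, limma adjusted p = 1.76e-06). The second probe set of Mylk, dimmer with a mean of 5.12 over all arrays, gave 1.25. That of Nexn gave 6.45. Nexn, which encodes the filament-binding protein nexilin, stood at 11.29, 10.10, 11.03 and 10.89 against 4.61, 4.96 and 4.64, a difference of 6.09 (SE 0.28, limma adjusted p = 1.57e-06). The epithelial values of Actg2, Cnn1 and Nexn lay low on the array, with 17.2%, 14.0% and 16.9% of genes lower, and no detection calls were used, so their differences may be understated.

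Within the fibroblastic line the contractile genes split the arrays alike. Arrays 1 and 3 were both above arrays 2 and 4 for every one of the 9 genes, and array 2 was the lowest for every one. Array 3 was the highest for Actg2 and Mylk, and array 1 for the other 7. Over all genes, 32.5% had arrays 1 and 3 above arrays 2 and 4, and 30.3% had array 2 lowest. The same split was found in 16 of 22 other smooth muscle genes and in 15 of 22 stress fibre and focal adhesion genes. It was found in 12 of 12 other isoforms of the same proteins, the cytoplasmic gamma actin gene Actg1 among them. Of 19 genes of the RhoA and serum response factor axis 8 had this split, and 5 had arrays 1 and 3 both below. For 12 genes of TGF-beta signalling these counts were 4 and 6. Over all genes 27.3% had both below. The SD among the 4 arrays was 1.64 for Cnn1, 1.61 for Actg2, 1.39 for Acta2, 1.15 for Tagln and 1.02 for Myl9. It was 0.995 for Tpm1, 0.671 for Tpm2, 0.513 for Nexn and 0.402 for Mylk, against a median of 0.242 over all genes. An SD above 1 was found in 3.49% of all genes. The mean of arrays 1 and 3 exceeded that of arrays 2 and 4 by 2.72 for Cnn1, 2.43 for Actg2, 2.29 for Acta2 and 0.59 for Mylk. The median of this difference over all genes was 0.04.

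**Figure D2:**
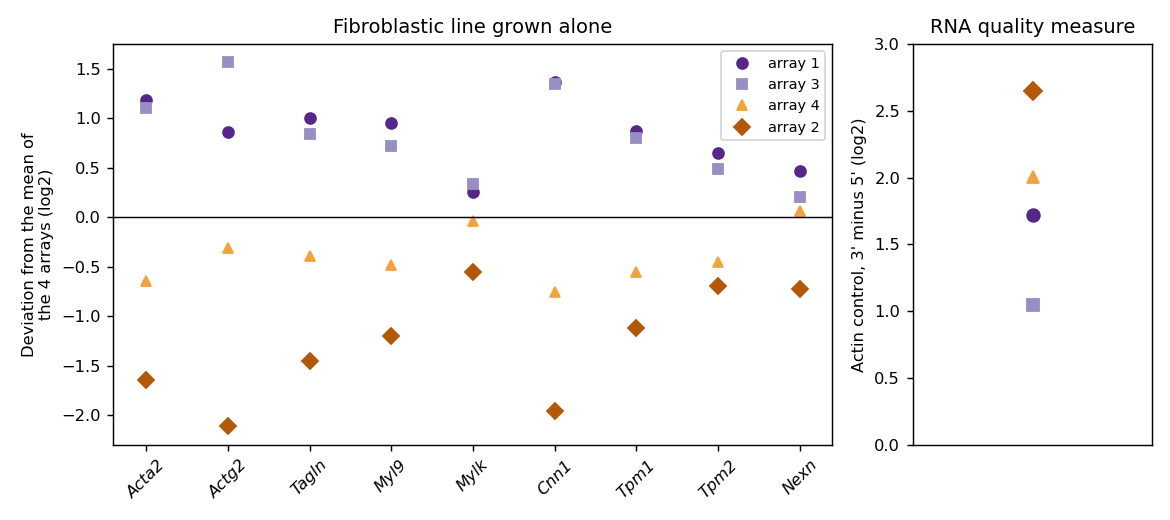
Log2 level of each contractile gene in the 4 arrays of the fibroblastic line grown alone, shown as the distance from the mean of the 4 arrays, and, in the right panel, the log2 excess of the 3' over the 5' actin control probe set in the same arrays. Arrays 1 and 3 lie above arrays 2 and 4 for all 9 genes. The difference between the means of these pairs is largest for Cnn1 (2.72) and smallest for Mylk (0.59).

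The actin control, a sign of RNA quality, moved with this split. For the actin control, the 3' probe set exceeded the 5' probe set on the log2 scale by 1.72 and 1.05 in fibroblastic arrays 1 and 3 and 2.65 and 2.01 in arrays 2 and 4. The same difference for the GAPDH control was 0.151, -0.038, 0.27 and 0.146 in arrays 1, 3, 2 and 4. There array 1 lay above array 4, so this control did not follow the split. The part of RNA quality in the spread of the contractile genes was not tested. Acta1, the skeletal muscle actin, had the same split, at 9.24, 4.09, 8.20 and 5.15 in arrays 1 to 4. Of 12 markers of vascular smooth muscle and pericytes, 5 had arrays 1 and 3 both above arrays 2 and 4 and 2 had both below, where 27.3% of all genes had both below. Abcc9, a potassium channel subunit of pericytes, was 1 of the 2, at 8.07, 11.70, 7.83 and 10.97, and was singled out after its values were seen. The fibroblast marker means of arrays 1 to 4 were 10.73, 11.26, 10.82 and 11.23, with array 2 highest and array 1 lowest. The single markers were mixed. Of the 10, 4 had arrays 1 and 3 both above arrays 2 and 4 and 5 had both below (32.5% and 27.3% of all genes).

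The tumours were then compared with the lines to place whole tissue between them. Against the epithelial line 8 of the 9 genes were higher in the tumours and 0 were lower, where 18.9% of all genes were called higher and 33.2% lower. Against the fibroblastic line 0 were higher and 7 were lower, where 27.3% of all genes were called higher and 33.5% lower. Centring every array on its own median turned the split over all genes from 2685 higher and 4722 lower to 3751 and 3431 against the epithelial line, and from 3888 and 4764 to 5095 and 3821 against the fibroblastic line. The tumour arrays enter both comparisons. Their actin 3' to 5' difference was 0.606 to 0.752, below every array of either line grown alone, and its part in these comparisons was not tested. The median difference of the 9 genes was 3.23 against the epithelial line and -2.85 against the fibroblastic line, beside -0.17 and -0.07 for all genes.

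Acta2 stood at 10.01, 9.95, 10.40 and 10.21 in tumours 1 to 4. These values lay above every epithelial array and inside the range of the fibroblastic line. The difference was 3.23 (SE 0.64, limma adjusted p = 0.00205) from the epithelial line and -0.80 (SE 0.60, limma adjusted p = 0.267) from the fibroblastic line. Without fibroblastic array 2 the second, not called, became -1.35 (limma adjusted p = 0.0381). It was -1.94 (limma adjusted p = 0.00304) without fibroblastic arrays 2 and 4. Those arrays hold the lowest Acta2 values of the line, so both shifts follow from the choice of arrays. Actg2 stood at 9.19, 7.86, 9.69 and 8.90 in the tumours, again above every epithelial array and overlapping the fibroblastic range. It differed by 4.16 (SE 0.73, limma adjusted p = 0.00101) and -1.84 (SE 0.68, limma adjusted p = 0.0358), and the second call was lost without tumour 1, 2 or 4 or fibroblastic array 1, 3 or 4, at up to an adjusted p of 0.0945.

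Tpm2 stood at 9.96, 10.36, 10.46 and 10.64 in the tumours, between the lines and overlapping neither. It differed by 4.70 (SE 0.38, limma adjusted p = 7.34e-06) from the epithelial line and by -3.28 (SE 0.35, limma adjusted p = 2.21e-05) from the fibroblastic line. The second probe set of Tpm2 differed by -0.26 from the fibroblastic line. Its means were 5.18 in the tumours and 4.78 in the epithelial line, so the size of both differences rests on the probe set. Tpm1 stood at 12.01, 12.37, 12.45 and 12.11, within the values of both lines. It differed by -0.13 (95% confidence interval -1.12 to 0.86, limma adjusted p = 0.825) and -0.39 (95% confidence interval -1.30 to 0.53, limma adjusted p = 0.439). With the mean of the probe sets of Tpm1 in place of the highest one, the differences were -1.06 (limma adjusted p = 0.017) and -1.63 (limma adjusted p = 0.00075), so both calls depend on the probe set. Leaving out fibroblastic arrays 2 and 4 moved the second to -1.23 (limma adjusted p = 0.00272).

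Tagln stood at 11.72, 11.60, 12.10 and 12.17 in the tumours, which overlaps the lowest fibroblastic array. The difference was 5.72 (SE 0.49, limma adjusted p = 1.09e-05) from the epithelial line and -1.46 (SE 0.46, limma adjusted p = 0.0171) from the fibroblastic line. Cnn1 stood at 6.63, 6.64, 7.54 and 7.31, below every fibroblastic array and above every epithelial array. It differed by 2.47 (SE 0.71, limma adjusted p = 0.0142) and -3.53 (SE 0.66, limma adjusted p = 0.000937). Myl9 stood at 9.66, 9.62, 9.95 and 10.22 and Mylk at 9.17, 7.90, 9.07 and 9.60. The light chain differed by 3.20 (SE 0.44, limma adjusted p = 0.00023) and -2.85 (SE 0.41, limma adjusted p = 0.000152). Its kinase differed by 3.62 (SE 0.40, limma adjusted p = 5.74e-05) and -3.00 (SE 0.37, limma adjusted p = 5.24e-05). The second probe set of Mylk differed by -1.06 from the fibroblastic line. Its means were 4.89 in the tumours and 4.70 in the epithelial line, so the size of both differences rests on the probe set.

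Nexn lay nearest the epithelial line, at 5.42, 5.84, 5.89 and 6.03 in the tumours. It differed by 1.06 (SE 0.26, limma adjusted p = 0.0064) from the epithelial line and by -5.03 (SE 0.24, limma adjusted p = 6.73e-08) from the fibroblastic line, the largest shortfall of the 9 genes. With a further quantile normalization the first was 0.61 (limma adjusted p = 0.0801). Relative to the fibroblastic mean on a linear scale, the tumour mean was 57.6% for Acta2, 36.3% for Tagln, 27.9% for Actg2 and 76.5% for Tpm1. It was 13.8% for Myl9, 12.5% for Mylk, 10.3% for Tpm2, 8.64% for Cnn1 and 3.06% for Nexn.

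**Figure D3:**
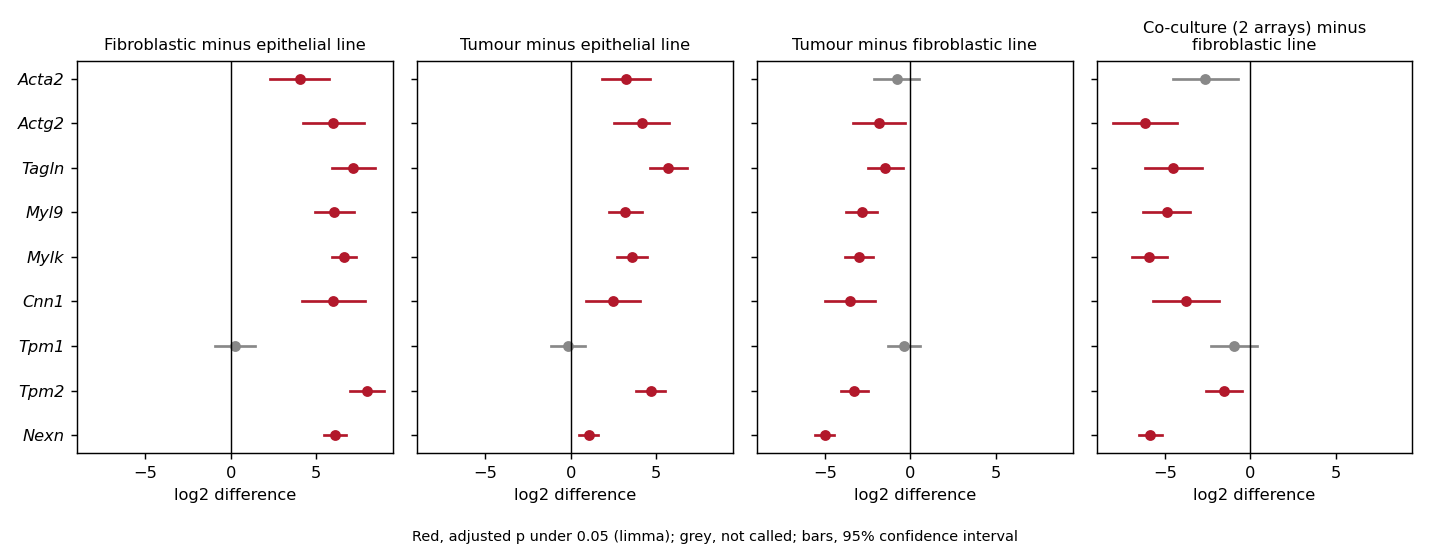
Log2 difference of each contractile gene for the lines, for tumours against each line and for both co-culture arrays as 1 group against the fibroblastic line; points are limma estimates, bars 95% confidence intervals, and grey marks genes not called. Tpm1 crosses 0 in every panel, and Nexn is furthest below 0 for tumours against the fibroblastic line.

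For background, the tumours were set against the fibroblastic line over all genes that it expressed above the epithelial line. Of the 2357 genes called higher in the fibroblastic than in the epithelial line, 83.1% were called lower in the tumours than in the fibroblastic line, with a median difference of -1.35. Of the 8 contractile genes in that group 7 were lower, with a median of -2.93. These genes were chosen as high in the same fibroblastic arrays, which favours a lower tumour value, so nothing is read from either share. In whole tissue, fewer cells of a type and less RNA per cell cannot be told apart. The fibroblast marker mean was 10.72 to 11.14 in the tumours. Of these 10 markers 8 were lower than in the fibroblastic line and 2 higher, with a median difference of -1.44. Over all genes 33.5% were called lower and 27.3% higher. The higher markers were Dcn (12.20 against 5.49) and Lum (11.76 against 4.28), which raise the tumour mean.

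Markers of other cell types were also read in the tumours. The mean of 12 markers of vascular smooth muscle and pericytes, cells that express this contractile machinery themselves, ranged from 6.51 to 7.08 in the tumours. It was 5.21 to 5.39 in epithelial and 6.94 to 7.31 in fibroblastic arrays, so the tumour range overlapped that of the fibroblastic line. Against the epithelial line 8 of the 12 were higher in tumour tissue and 0 lower (18.9% and 33.2% of all genes). Against the fibroblastic line Rgs5, Rgs4 and Notch3 were higher and 5 were lower (Abcc9, Lmod1, Mcam, Cspg4 and Des). Over all genes 27.3% were higher and 33.5% lower in that comparison. Rgs5, a pericyte gene, stood at 8.37 to 9.81 in the tumours against a mean of 4.55 in the epithelial and 4.22 in the fibroblastic line. The means of macrophage markers (10.33 to 10.70) and endothelial markers (6.40 to 7.12) were above those of both lines. Hepatocyte markers were 12.65, 11.11 and 12.89 in tumours 1, 3 and 4 and 5.47 in tumour 2, with albumin (Alb) at 14.51, 13.94, 14.46 and 7.50 in the same order. The endothelial gene Pecam1 stood at 6.90 to 7.63 in the tumours, and Col1a1 at 11.35 to 12.18. With tumour 2 as the only tumour, Tagln, Myl9, Mylk and Tpm2 stayed called against the epithelial line, and Acta2 (3.04), Actg2 (3.11), Cnn1 (2.07) and Nexn (1.11) did not (limma adjusted p = 0.109, 0.112, 0.279 and 0.118). On that tumour alone Actg2 and Tagln were not called against the fibroblastic line (limma adjusted p = 0.0924 and 0.147). The part of these cells in the tumour levels was not tested.

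Co-culture was compared with growth alone, with the lone arrays assumed to vary like the replicated groups. By label, 1 of the 9 genes was higher and 0 were lower in the array labelled epithelial co-culture than in the epithelial line, where 4.87% of all genes were called higher and 2.37% lower. For the array labelled fibroblastic co-culture 0 were higher and 5 lower than in the fibroblastic line, where 4.78% of all genes were called higher and 3.63% lower. Taken as 1 group, both co-culture arrays had 2 of 9 genes higher and 0 lower than the epithelial line (8.75% of all genes higher, 9.62% lower). Against the fibroblastic line they had 0 higher and 7 lower (9.53% of all genes higher, 10.5% lower).

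Among the actins, Acta2 stood at 7.56 in the array labelled epithelial co-culture and 9.06 in the array labelled fibroblastic co-culture. The first lay within the epithelial range and the second below all 4 fibroblastic arrays, but neither difference was called (0.65, limma adjusted p = 0.822, and -1.88, limma adjusted p = 0.392). Without fibroblastic arrays 2 and 4 the second was -3.03 and called (limma adjusted p = 0.0279). Both arrays together differed from the epithelial line by 1.40 (limma adjusted p = 0.339) and from the fibroblastic line by -2.63 (limma adjusted p = 0.0592). Actg2 stood at 4.56 and 4.62, in both arrays at the level of the epithelial line. It was lower than in the fibroblastic line by label, by -6.13 (SE 1.12, limma adjusted p = 0.0138), and with both arrays together, by -6.16 (limma adjusted p = 0.000912).

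Tpm2 was the gene called higher by label in epithelial co-culture. It stood at 11.87 and 12.34 in the co-culture arrays, above every epithelial array by more than 5 log2 units and below every fibroblastic array. It was higher in the array labelled epithelial co-culture than in the epithelial line by 6.21 (SE 0.64, limma adjusted p = 0.000807). The array labelled fibroblastic co-culture was not called lower than the fibroblastic line (-1.30, SE 0.62, limma adjusted p = 0.292), and both arrays together were, by -1.53 (limma adjusted p = 0.0473). The second probe set of Tpm2 differed by -0.09 from the fibroblastic line in the array labelled fibroblastic co-culture. In the array labelled epithelial co-culture it stood at 5.16, against a mean of 4.78 in the epithelial line, so the size of that rise rests on the probe set. Tpm1 stood at 11.13 and 12.23. No co-culture difference was called for Tpm1 by label, at -1.24 (limma adjusted p = 0.415) and -0.39 (limma adjusted p = 0.836).

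Tagln stood at 7.82 and 9.91, above every epithelial array and below every fibroblastic array. It differed by 1.64 (limma adjusted p = 0.307) from the epithelial line and by -3.45 (SE 0.81, limma adjusted p = 0.0396) from the fibroblastic line by label. The call was lost without any 1 of epithelial arrays 1, 2 and 3 or fibroblastic arrays 1, 3 and 4, at up to an adjusted p of 0.068, and both arrays together gave -4.50 (limma adjusted p = 0.00276). Against the epithelial line both arrays together were higher by 2.68 (limma adjusted p = 0.0417). Cnn1 stood at 6.41 and 7.20, also between the lines. By label it differed by 1.85 (limma adjusted p = 0.435) and -3.36 (limma adjusted p = 0.138), and both arrays together differed from the epithelial line by 2.24 (limma adjusted p = 0.125) and from the fibroblastic line by -3.75 (limma adjusted p = 0.015). Without fibroblastic arrays 2 and 4, the unchanged differences of Tagln and Cnn1 from the epithelial line were called (limma adjusted p = 0.00612 and 0.0125). By label Cnn1 differed from the fibroblastic line by -4.01 once fibroblastic array 2 was left out and by -4.72 without arrays 2 and 4.

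Myl9 stood at 7.04 and 8.59, Mylk at 5.26 and 6.79 and Nexn at 4.77 and 5.19, and all lay below every fibroblastic array. The second probe set of Mylk differed by -1.07 from the fibroblastic line in the array labelled fibroblastic co-culture. By label in fibroblastic co-culture, Myl9 was lower by -4.12 (SE 0.72, limma adjusted p = 0.0115), Mylk by -5.15 (SE 0.45, limma adjusted p = 0.000482) and Nexn by -5.63 (SE 0.41, limma adjusted p = 0.000173). With both arrays as 1 group the differences were -4.90, -5.92 and -5.84 (limma adjusted p = 0.000678, 4.24e-05 and 4.78e-06). For the array labelled epithelial co-culture, differences from the epithelial line were 0.37, -0.06 and 0.04, none called. With only the groups compared in the fit, the fibroblastic co-culture calls of Actg2, Tagln and Myl9 were lost (limma adjusted p = 0.0588, 0.11 and 0.0516), and the differences of Tagln and Cnn1 from the epithelial line were called (limma adjusted p = 0.0217 and 0.038).

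The co-culture arrays were also set against the fibroblastic line on a linear scale. Relative to the fibroblastic mean, the array labelled fibroblastic co-culture had 27.2% of Acta2, 9.74% of Cnn1, 9.14% of Tagln, 5.75% of Myl9, 2.81% of Mylk, 2.02% of Nexn and 1.43% of Actg2. It had 40.7% of Tpm2 and 76.4% of Tpm1, which the epithelial line carried too at 83.8%. The same array had 62.6% of Col1a1, 62.6% of Col1a2 and 33.2% of the collagen gene Col3a1. It had 58.3% of Pdgfra, 16.4% of Pdgfrb, 7.24% of Postn, 115% of Thy1 and 103% of Vim. For Dcn and Lum, not called between the lines, it had 42.5% and 55.1%. The fibroblast markers were therefore not uniform, and Postn, a matrix protein of activated fibroblasts, was among the low values. With both co-culture arrays as 1 group, 4 of 10 fibroblast markers were lower than in the fibroblastic line, where 10.5% of all genes were. Their median difference was -0.96, against -4.50 for the contractile genes and 0.03 for all genes.

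**Figure D4:**
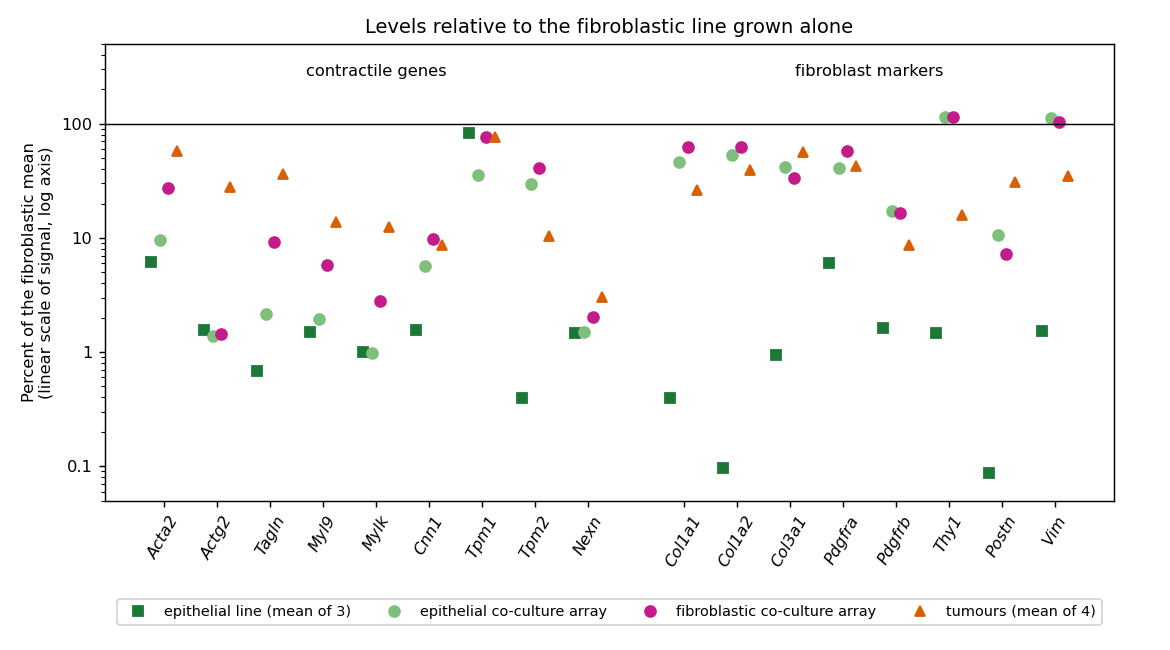
Level of each contractile gene (left) and each fibroblast marker (right) in the epithelial line, each co-culture array and the tumours, as a percent of the mean of the fibroblastic line grown alone, on a log axis; the horizontal line marks the fibroblastic mean itself, and Dcn and Lum, which were higher in tumours than in the fibroblastic line, are left out. In the array labelled fibroblastic co-culture Actg2 stands at 1.43%, near the epithelial line (1.56%), and Col1a1 at 62.6%. The sets overlap there, with Acta2 at 27.2% and Tpm1 at 76.4% beside Postn at 7.24% and Pdgfrb at 16.4%.

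The same reference group was used for co-culture. Of the 2357 genes higher in the fibroblastic than in the epithelial line, 20.0% were called lower in the array labelled fibroblastic co-culture, with a median difference of -0.68, and 5 of the 8 contractile genes were, with a median of -3.79. With both arrays as 1 group 46.2% were lower, with a median of -0.76, and 7 of the 8 contractile genes, with a median of -4.70. Here too the genes were chosen as high in the arrays they are compared with. The arrays hold RNA of both lines in unknown proportion, so a smaller share of fibroblastic cells and less RNA per fibroblastic cell cannot be told apart. The actin 3' to 5' difference was 0.962 and 0.848 in the co-culture arrays, below every fibroblastic array.

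The response to co-culture was also compared between the lines by label. It was lower in the fibroblastic than in the epithelial line for 5 of the 9 genes and higher for 0, where 4.66% of all genes were called lower and 3.76% higher. The genes were Tagln (-5.09), Myl9 (-4.49), Mylk (-5.09), Tpm2 (-7.51) and Nexn (-5.67). Actg2 (-5.94, limma adjusted p = 0.0659) and Cnn1 (-5.21, limma adjusted p = 0.109) were not called. By construction this value also contains the difference between the lines grown alone, and both co-culture arrays carry both sets of markers.

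Other genes of the smooth muscle contractile apparatus and its calcium handling were listed as well. For the co-culture counts by label in this and the following lists, the shares of all genes are those given above. Of 22 measured, 13 were higher and 1 was lower in the fibroblastic than in the epithelial line (16.6% and 20.9% of all genes). The median difference was 2.50. The higher genes included Cald1 (5.74), whose product caldesmon inhibits the myosin ATPase, and Pln (5.44), the regulator of the calcium pump. The LIM protein gene Fhl1 (5.12) was among them too, while Crip1 was lower (-4.19). Myh11, the smooth muscle myosin heavy chain, was not called (1.05, SE 0.80, limma adjusted p = 0.346). It stood at 10.22, 6.97, 9.45 and 7.06 in fibroblastic arrays 1 to 4, so arrays 2 and 4 were below all 3 epithelial arrays, whose mean was 7.38. In the tumours 7 were higher and 0 lower than in the epithelial line (18.9% and 33.2% of all genes), and 2 higher and 15 lower than in the fibroblastic line (27.3% and 33.5%).

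In co-culture, 4 of the 22 were higher in the array labelled epithelial co-culture than in the epithelial line, led by the intermediate filament gene Des (4.16), Cald1 (3.75) and Tgfb1i1 (2.88). In fibroblastic co-culture by label 6 were lower than in the fibroblastic line, led by Pln (-5.01), Pdlim3 (-3.94) and Aoc3 (-3.55). Des did not follow them and stood at 10.41 and 10.49 in the co-culture arrays against a fibroblastic mean of 9.56. Taken as 1 group the co-culture arrays had 1 of 22 higher and 10 lower than the fibroblastic line (9.53% and 10.5% of all genes).

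Other isoforms of the same proteins were listed next, mostly non-muscle forms of the cortex and stress fibres, with the striated muscle kinases Mylk2 and Mylk3. Of 12 measured, 4 were higher and 3 lower in the fibroblastic line (16.6% and 20.9% of all genes), with a median of 0.26. Higher were the non-muscle myosin heavy chain Myh10 (2.78), the cardiac myosin light chain kinase Mylk3 (1.99) and the calponin Cnn2 (1.67), and lower were Myh14 (-4.60) and the light chain Myl12b (-1.46). In the tumours 1 was higher, the skeletal muscle kinase Mylk2 (0.63), and 3 were lower than in the epithelial line (18.9% and 33.2% of all genes). Against the fibroblastic line 4 were higher and 6 lower (27.3% and 33.5% of all genes). In tumours against the epithelial line the calls fell to 2 without tumour 1 or 4, and between the lines they numbered 4 without epithelial array 3, when Mylk3 was not called (limma adjusted p = 0.0565). In the co-culture arrays by label, limma called 0 against the epithelial line (0 at an unadjusted p under 0.05), and Myh14 (3.16) and Myl12b (1.38) were higher than in the fibroblastic line. The call of Myh14 was lost in 6 of 7 settings with 1 array left out, at up to an adjusted p of 0.0811. As 1 group the co-culture arrays had 0 called against the epithelial line (8.75% of all genes higher, 9.62% lower). Against the fibroblastic line they had 2 higher and 2 lower (9.53% and 10.5% of all genes).

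Stress fibres end in focal adhesions, where integrins, talin and vinculin couple actin to the matrix. Of 22 such genes, 14 were higher and 1 lower in the fibroblastic line (16.6% and 20.9% of all genes), with a median of 1.44. The collagen-binding integrin Itga11 (5.39), the tensin Tns1 (4.55) and the filamin Flnc (4.52) led, and the adaptor Pxn was lower (-1.80). In the tumours 5 were higher and 3 lower than in the epithelial line, where 18.9% and 33.2% of all genes were. Against the fibroblastic line 1 was higher and 18 lower (27.3% and 33.5% of all genes). By label, 4 were higher in epithelial co-culture, led by Tns1 (3.37), Itga5 (3.19) and Flnc (3.10). Fblim1 (-2.43), Fermt2 (-1.78) and Vcl (-1.50), which encodes vinculin, were lower by label in fibroblastic co-culture, and Pxn was higher (1.41). As 1 group the co-culture arrays had 6 higher and 0 lower than the epithelial line (8.75% and 9.62% of all genes). Against the fibroblastic line they had 2 higher and 8 lower (9.53% and 10.5% of all genes).

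RhoA and its kinase build stress fibres, and the actin they polymerise frees the coactivators of serum response factor. Of 19 genes of this axis, 8 were higher and 0 lower in the fibroblastic line (16.6% and 20.9% of all genes). The median was 0.89, and the target genes Ccn1 (3.02) and Ccn2 (1.98) and Arhgap1 (1.99) led. Myocd, which encodes the smooth muscle coactivator myocardin, was not called (2.25, SE 0.80, limma adjusted p = 0.0582). In the tumours 3 were higher and 3 lower than in the epithelial line, no larger shares than the 18.9% and 33.2% of all genes. Against the fibroblastic line 1 was higher and 11 lower (27.3% and 33.5% of all genes). The calls against the epithelial line fell from 6 to 3 without tumour 1 or 3 and to 2 without tumour 4. In co-culture by label, Rhob was higher (2.18) than in the epithelial line, and Arhgap1 was lower (-1.59) and Diaph1 higher (1.11) than in the fibroblastic line. With 1 array left out these calls were lost in 5 of 7, 1 of 7 and 6 of 7 settings, at up to an adjusted p of 0.0864, 0.0539 and 0.0721. As 1 group the co-culture arrays had 4 higher and 0 lower than the epithelial line (8.75% and 9.62% of all genes). Against the fibroblastic line they had 2 higher and 3 lower (9.53% and 10.5% of all genes).

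Of 12 genes of TGF-beta signalling, 7 were higher and 0 lower in the fibroblastic line (16.6% and 20.9% of all genes). The median was 1.43, and the latent TGF-beta binding protein Ltbp2 (4.57) and the ligands Tgfb3 (4.28) and Tgfb2 (3.43) were among the higher genes. In the tumours 4 were higher and 4 lower than in the epithelial line (18.9% and 33.2% of all genes), and 2 higher and 8 lower than in the fibroblastic line (27.3% and 33.5%). Ltbp2 (4.74), the integrin Itgav (2.11), which takes part in activating latent TGF-beta, and the inhibitor Smad7 (1.89) were higher in the array labelled epithelial co-culture. The call of Smad7 was lost in 5 of 7 settings with 1 array left out, at up to an adjusted p of 0.09. For the array labelled fibroblastic co-culture limma called 0 of 12 in either direction, and 3 had an unadjusted p under 0.05. As 1 group the co-culture arrays had 4 higher and 0 lower than the epithelial line (8.75% and 9.62% of all genes). Against the fibroblastic line they had 0 higher and 2 lower (9.53% and 10.5% of all genes).

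Genes whose pattern over the 13 arrays lay nearest to the mean of the contractile genes were found by the root mean square difference of their centred log2 values. They were Gpr176 (0.523), Tmtc1 (0.54), Rftn1 (0.575), C1qtnf2 (0.594), Cd200 (0.601) and the laminin chain Lama4 (0.617). Nearest to Acta2 alone were Celf2 (0.687), Rftn1 (0.689) and Fblim1 (0.712). For comparison, the contractile genes themselves lay at 0.321 (Myl9), 0.615 (Cnn1), 0.782 (Mylk), 0.817 (Acta2), 0.985 (Tagln), 1.01 (Actg2), 1.14 (Nexn), 1.57 (Tpm2) and 1.97 (Tpm1), the mean including the gene itself. These distances are a description over arrays that share groups.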

How the data were processed

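Total RNA was extracted with Trizol, per the labels, and hybridized as biotin-labelled cRNA to single-colour Affymetrix arrays. The authors computed the deposited log2 values with RMA before deposit, per the submitters' processing notes. Their log2 scale was inferred from the range (2.94 to 14.69), and which release of RMA was used, and over which arrays, is not stated in the labels. The values were used as deposited. Of 31099 probe sets, 57 were controls, 20826 named 1 gene, 436 several and 9780 none, by the platform annotation. Entrez identifiers gave current symbols for 20758 of these probe sets and accessions for 2, 66 kept the annotated symbol, and the probe set with the highest mean stood for each of 14217 genes.

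Group means were fitted with limma 3.58.1 in R 4.3.3 (moderated statistics, two-sided), over 9 arrays (lines alone and in co-culture) or 11 arrays (tumours and lines alone), with Benjamini-Hochberg adjustment over all genes and a threshold of 0.05. The code was tested on simulated data. Tables and plots used Python 3.11.15 with numpy 2.4.6, matplotlib 3.10.9 and pandas 2.3.3. Promoter windows come from RefSeq (GRCr8).

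The contractile genes and the gene lists were chosen with earlier results of these data known. Measured of listed were 22 of 24 other smooth muscle genes, 12 of 14 other isoforms of the same proteins, 22 of 22 stress fibre and focal adhesion genes, 19 of 21 genes of the RhoA and serum response factor axis and 12 of 14 of TGF-beta signalling. Named were all contractile genes, from each list the 3 highest and 2 lowest called genes between the lines and up to 3 called in each co-culture comparison, the 6 and 3 nearest genes by pattern, and a set of cell type markers. Alternatives were 1 fit of all arrays, only the groups compared, quantile normalization, median centring, the mean of the probe sets, leaving out the lowest 1/3 of genes, a robust trend, each array left out, tumour 2 as the only tumour, fibroblastic arrays 2 and 4 left out, and the replicate number as a block. Fibroblastic arrays 2 and 4 hold the lowest values of every contractile gene, so calls gained by leaving them out follow from that choice. Both co-culture arrays as 1 group was added after the data were seen, and its arrays may not be independent.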

Additional observations from a re-analysis of the deposited data

Results flagged for a closer look

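For 5 contractile genes the response to co-culture, by label, differed between the lines in limma's test of the difference itself. The log2 response of the array labelled fibroblastic co-culture minus that of the array labelled epithelial co-culture was -5.09 for Tagln (adjusted p = 0.0346), -4.49 for Myl9 (adjusted p = 0.0349), -5.09 for Mylk (adjusted p = 0.00221), -7.51 for Tpm2 (adjusted p = 0.00156) and -5.67 for Nexn (adjusted p = 0.000732). Of these, Tpm2 was higher in the array labelled epithelial co-culture than in the epithelial line (6.21), while the other 4 were lower in the array labelled fibroblastic co-culture than in the fibroblastic line (-3.45 to -5.63). Each co-culture side is 1 array, and both arrays carry markers of both lines. By construction the value is the difference between the co-culture arrays (0.42 for Nexn and 0.47 for Tpm2) minus the difference between the lines grown alone (6.09 and 7.98), so for these genes it mostly restates the latter. The calls of Tagln and Myl9 were lost without any 1 of epithelial arrays 1, 2 and 3, at adjusted p of up to 0.0711 and 0.0708, and that of Tagln also without fibroblastic array 4 (0.0548).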

How the results depend on the processing

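In the comparison of the lines and in the tumour comparisons the contractile genes kept their direction under the alternatives run, apart from Tpm1, whose uncalled difference from the epithelial line turned to 0.066 in tumours with median centring and to 0.0047 with tumour 2 as the only tumour. Leaving out 1 array gave -0.39 to 0.0018 for Tpm1 in tumours against the epithelial line and -0.035 to 0.63 between the lines. The call of Actg2 in tumours against the fibroblastic line was lost with quantile normalization (-1.53, limma adjusted p = 0.0843). It was also lost with median centring (-1.66, limma adjusted p = 0.0538) and with only the groups compared (limma adjusted p = 0.0636). In the array labelled epithelial co-culture the uncalled differences near 0 also turned: Nexn to -0.11 under quantile normalization and -0.026 to 0.15 with 1 array left out, and Mylk to 0.71 with both co-culture arrays as 1 group and -0.28 to 0.25 with 1 array left out. All genes called numbered 1743 in 1 fit of all 13 arrays and 2612 with both co-culture arrays as 1 group, against 1029 for the array labelled epithelial co-culture. They numbered 2845 with both arrays as 1 group against 1195 for the array labelled fibroblastic co-culture. With tumour 2 as the only tumour 1958 genes were called against the epithelial line (7407 otherwise), 4 contractile genes among them in place of 8, and 3912 against the fibroblastic line (8652 otherwise). The contractile genes called in the array labelled epithelial co-culture were 3 with only the groups compared, 3 without fibroblastic arrays 2 and 4 and 2 with both co-culture arrays as 1 group, against 1. Those called in the array labelled fibroblastic co-culture were 2 with only the groups compared, against 5. The difference in response called 3 to 7 with 1 array left out and 8 without fibroblastic arrays 2 and 4, against 5.

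The replicate numbers do not pair the samples: same-numbered arrays of the lines correlated at 0.14, 0.10 and -0.04 after their group means were removed. With the replicate block, 8 contractile genes were called between the lines, 8 in tumours against the epithelial line and 7 against the fibroblastic line, the same counts as without it. The co-culture arrays carry no number, so no paired fit was made there. The limits of these data are 1 array for each co-culture label, 1 clone for each line, no detection calls for low values, and no measure of the share of fibroblastic cells in tumours or co-culture.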
